A study of Mus musculus with 2 samples.

Results

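The classical cadherins and the non-clustered protocadherins are genes for adhesion proteins of the cell surface, and 33 of them were examined among the 21853 protein-coding genes of the mouse annotation. They were taken by name, 22 of them Cdh genes and 11 of them Pcdh genes, and were sorted by where each is best known to act. The 11 neural cadherins were Cdh2, Cdh4, Cdh6, Cdh7, Cdh8, Cdh9, Cdh10, Cdh12, Cdh18, Cdh20 and Cdh22. The 5 epithelial cadherins were Cdh1, Cdh3, Cdh16, Cdh17 and Cdh26. The 6 other cadherins were Cdh11, Cdh13, Cdh15, Cdh19, Cdh23 and Cdh24, and the 11 protocadherins were Pcdh1, Pcdh7, Pcdh8, Pcdh9, Pcdh10, Pcdh12, Pcdh15, Pcdh17, Pcdh18, Pcdh19 and Pcdh20. Open chromatin at these genes was read from DNase-seq, which finds DNA that the enzyme DNase I can cut in nuclei. The tissue was neural tube, the embryonic forerunner of brain and spinal cord, of healthy B6NCrl mouse embryos of pooled sex at 11.5 days. There was 1 group with 2 biological replicates, which carry the same donor label and name no genotype or treatment. With 1 group no test across samples was possible, so neural and epithelial cadherins were set beside each other as counts, medians and values in each library.

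Cadherins hold neighbouring cells together by binding a like molecule on the next cell through their outer repeats in the presence of calcium, and classical cadherins tie that contact to actin through catenins inside the cell. When the neural plate folds and separates from the surface ectoderm, the plate is known to give up E-cadherin, encoded by Cdh1, for N-cadherin, encoded by Cdh2. Type II cadherins and protocadherins are expressed later in overlapping patterns that sort neurons into nuclei, pools and circuits.

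Open regions away from promoters are shown first, because the groups are set beside each other mainly on them. Each is a 150 bp peak that overlapped a peak in both libraries, written 5′ to 3′ on the plus strand of GRCm38 (mm10), and it is the best-scoring such distal peak of its gene. Capitals mark matches to the short motifs described at the end, and a match is a description of letters and not a bound site. The first 4 belong to neural cadherins. Cdh22 chr2:165195956-165196105 lies in an intron of the gene, 38.8 kb inside it, with CAGCTG in capitals. Cdh4 chr2:179537456-179537605 lies in an intron 94.9 kb past the start and holds none of the motifs. Cdh6 chr15:13393236-13393385 is intergenic, 219636 bp upstream, and has 2 matches to ACAATG, 1 on each strand. Cdh12 chr15:20967636-20967785 lies in an intron, 142414 bp upstream of the nearest start of that gene, and has CAGCTG. The other 2 belong to epithelial cadherins, chosen by the same rule. Cdh3 chr8:106507776-106507925 is intergenic, 3.04 kb upstream, with GGAATG and TAATTA in capitals. Cdh1 chr8:106619676-106619825 lies in an intron 16.4 kb past the start, with TGACTCA in capitals.
Cdh22: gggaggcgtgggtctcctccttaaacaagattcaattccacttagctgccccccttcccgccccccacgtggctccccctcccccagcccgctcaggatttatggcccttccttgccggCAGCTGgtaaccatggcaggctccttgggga
Cdh4: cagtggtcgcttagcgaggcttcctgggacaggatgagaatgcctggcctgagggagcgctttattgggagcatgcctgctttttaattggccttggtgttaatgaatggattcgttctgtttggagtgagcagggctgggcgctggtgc
Cdh6: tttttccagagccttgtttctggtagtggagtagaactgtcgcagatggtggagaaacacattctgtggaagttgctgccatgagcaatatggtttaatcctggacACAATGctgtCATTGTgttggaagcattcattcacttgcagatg
Cdh12: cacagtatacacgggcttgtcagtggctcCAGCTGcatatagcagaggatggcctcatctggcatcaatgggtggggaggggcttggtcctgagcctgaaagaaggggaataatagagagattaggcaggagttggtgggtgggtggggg
Cdh3: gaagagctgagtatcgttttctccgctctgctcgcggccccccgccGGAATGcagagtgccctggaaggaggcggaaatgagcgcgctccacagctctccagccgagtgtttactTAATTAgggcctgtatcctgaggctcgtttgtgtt
Cdh1: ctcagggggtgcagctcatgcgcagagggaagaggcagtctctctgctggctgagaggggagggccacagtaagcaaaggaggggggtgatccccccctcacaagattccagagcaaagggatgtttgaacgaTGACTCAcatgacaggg

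Promoter windows of 3 members show examples of differing CpG content, which is set beside the promoter results below. RefSeq windows (GRCm38.p6) run from 250 bases before to 50 bases after a start, and 22 of the 33 members matched one. CpG dinucleotides are in capitals, and each window is written on the strand of its gene. Cdh22 chr2:165234688-165234987 on the minus strand holds 38 CpGs, and its promoter was open in both libraries. Cdh18 chr15:23036213-23036512 on the plus strand holds 12 and was also open in both. Cdh26 chr2:178430265-178430564 on the plus strand holds 4 and was open in neither. The median over 32851 RefSeq windows was 7 CpGs.
Cdh22: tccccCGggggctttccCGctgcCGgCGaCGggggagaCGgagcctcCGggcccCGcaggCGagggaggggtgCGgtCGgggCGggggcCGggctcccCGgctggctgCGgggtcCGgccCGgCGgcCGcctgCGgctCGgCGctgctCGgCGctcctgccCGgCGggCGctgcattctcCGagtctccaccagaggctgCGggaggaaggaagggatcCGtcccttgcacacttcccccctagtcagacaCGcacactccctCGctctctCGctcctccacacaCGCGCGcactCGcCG
Cdh18: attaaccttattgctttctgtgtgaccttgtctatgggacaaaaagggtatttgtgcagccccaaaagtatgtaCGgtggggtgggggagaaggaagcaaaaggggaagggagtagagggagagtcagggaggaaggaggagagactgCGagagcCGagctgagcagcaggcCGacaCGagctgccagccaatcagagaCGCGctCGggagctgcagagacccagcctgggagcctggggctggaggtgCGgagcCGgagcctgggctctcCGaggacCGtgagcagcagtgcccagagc
Cdh26: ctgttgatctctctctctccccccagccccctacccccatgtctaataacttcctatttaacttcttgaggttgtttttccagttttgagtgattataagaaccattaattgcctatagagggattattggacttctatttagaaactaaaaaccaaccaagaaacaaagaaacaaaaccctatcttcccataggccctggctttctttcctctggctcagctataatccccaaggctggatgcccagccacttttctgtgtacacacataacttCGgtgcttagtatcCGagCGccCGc

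The authors called peaks in each library separately, and replicate 1 held 199653 peaks and replicate 2 held 154324. What the scores of the peaks measure is not stated, and they were used only to rank peaks within a list, as percentiles. No read counts were among the files, so sequencing depth is unknown. Replicate 1 had 163167 distal peaks and replicate 2 had 120645. The labelled tissue was checked on 10 genes of neural tube (such as Sox2, Pax6 and Nes), which all had a promoter peak in both libraries, against 66.5% of all coding genes. All 8 mesenchyme markers were open too, so open promoters do not single out neural tube. Because the tissue was taken in bulk, fewer cells of a type and weaker opening in each cell cannot be told apart.

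A promoter counted as open in a library if any peak reached within 500 bp of a transcription start site (TSS) of that gene. All 11 neural cadherins were open in both libraries, against 2 of the 5 epithelial cadherins. Across all coding genes a promoter peak was found in 68.5% in replicate 1, 67.7% in replicate 2 and 66.5% in both libraries. Cdh1, which encodes E-cadherin, and Cdh3, which encodes P-cadherin of basal epithelia, were the epithelial members with an open promoter. Cdh16, a cadherin of kidney tubules, Cdh17, the cadherin of intestinal epithelium, and Cdh26 had no promoter peak in either library. The protocadherins had 10 of 11 open in both libraries and the other cadherins 4 of 6. Over the 33 members 27 were open in both libraries, 5 were open in neither, against 30.4% of all coding genes, and Cdh19 was open in replicate 1 only, against 3.13%.

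The members without a promoter peak differed in how near the closest open region lay. At Cdh16 the nearest peak centre was 2913 bp away in replicate 1 and 2933 bp in replicate 2. At Cdh17 it was 4238 bp and 22436 bp away, and at Cdh26 4140 bp and 8640 bp. None of these 3 epithelial genes had a hotspot, a broader enriched region called by the authors, within the promoter window. Cdh23, a tip-link protein of inner-ear hair cells, sat just outside the threshold, with the nearest peak centre at 661 bp in both libraries. Its window was touched by a hotspot in both libraries, with a full length of 494 bp in replicate 1 and 440 bp in replicate 2. Such a hotspot was found in both libraries at 67% of coding genes. Just inside the threshold were Pcdh20, with its nearest peak centre at 355 bp in both libraries, and Cdh15 at 345 and 365 bp. In replicate 2 the nearest peak of Cdh11 was centred 531 bp away and counted because its edge reached the window. Cdh19, known from Schwann cell precursors, had a promoter peak at the 37.7th percentile of scores in replicate 1, while its nearest peak in replicate 2 lay 178032 bp away. Pcdh12, a protocadherin of endothelium and trophoblast, had none in either library, and its nearest peaks were 2409 and 2389 bp away.

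Sequence composition separated open from closed members along one scale. The ratio of observed to expected CpG was taken within 500 bp of each TSS, as the highest ratio over the TSSs of a gene, and genes were split at a ratio of 0.6. All 17 members at or above 0.6 were open in both libraries, where 98.3% of coding genes of that class were. Below 0.6, 10 of 16 members were open, where 32.8% of coding genes of that class were. That class takes in every lower ratio, whereas its open members, except Cdh15, all lay at 0.401 or above. The 32.8% is therefore not a share for genes of like ratio, which was not taken. The 5 neural cadherins of the CpG-poor class were all open, against 1 of 4 epithelial ones. The 3 closed epithelial genes had lower ratios than any of these 5, and the shares for such small sets were not tested. Cdh18 had the lowest ratio of the neural cadherins, 0.401, and Cdh12 and Cdh9 followed with 0.433 and 0.444. Of the epithelial cadherins Cdh1 had a ratio of 0.733 and Cdh3 of 0.521, whereas Cdh16, Cdh26 and Cdh17 had 0.212, 0.181 and 0.112. Every member from 0.401 upward was open in both libraries. Below that, Cdh15 at 0.261 was open in both, Cdh19 at 0.207 in replicate 1 only, and Cdh23 at 0.203 and Pcdh12 at 0.224 in neither. The promoter results and CpG content thus moved together, and the part of CpG content in them was not tested.

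**Figure D1:**
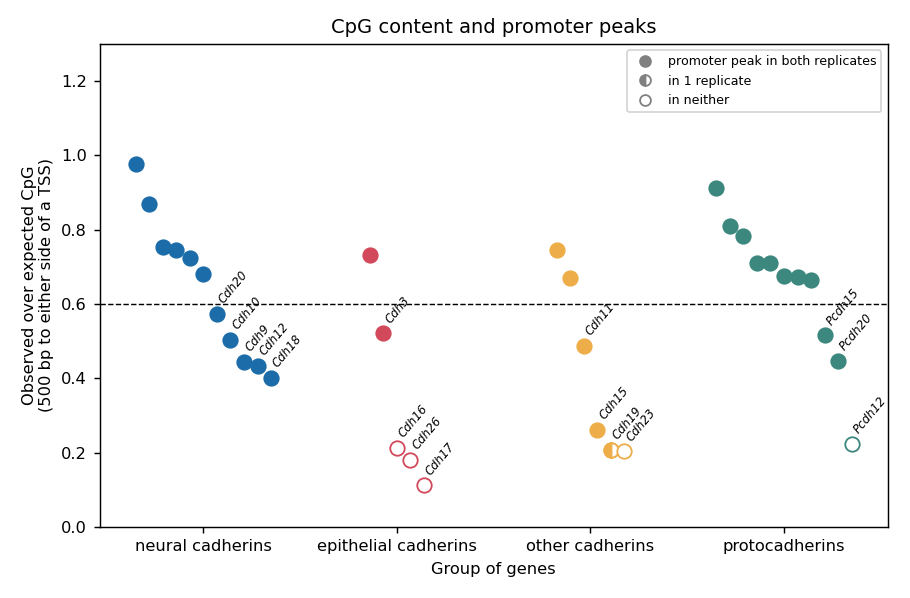
Ratio of observed to expected CpG within 500 bp of a TSS (vertical axis) for each member, by group (horizontal axis). Filled points had a promoter peak in both replicates, the point filled on one side in replicate 1 only, and open points in neither; the dashed line marks the ratio of 0.6, above which all 17 members were open.

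Rank of the promoter peak within its library varied among the open members. The best promoter peak of the neural cadherins had a median percentile of 92.6 in replicate 1 and 89.8 in replicate 2. For Cdh1 and Cdh3 the medians were 70.3 and 67.4. Over all open coding genes they were 95.8 and 94.8, so the neural median sat below that of open genes at large. Cdh2 led the neural group at 98.0 and 98.2. Cdh9 and Cdh12 were its lowest members, with 66.7 and 61.0 for Cdh9 and 64.3 and 55.2 for Cdh12. At Cdh18, a type II cadherin of brain, the strong peak stood at the TSS at position 23036463 of chromosome 15, with scores of 114 and 98. Its outermost TSS at 22549022 had a score of 28 in replicate 1 and no peak in replicate 2. The open promoters of Cdh8 and Cdh10 each lie within 500 bp of the start of a long non-coding RNA, and that of Cdh24 within 500 bp of the start of the coding gene Gm17606, so the signal there cannot be told apart between the pair. The best promoter peak of Cdh1 spanned positions 106603396 to 106603545 of chromosome 8, centred 92 bp past a TSS in its first exon, at the 71.0th percentile in replicate 1 and the 65.5th in replicate 2.

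Distal peaks are those centred more than 1 kb from all coding TSSs, and each was given to the gene whose TSS was closest. The territory of a gene is the stretch of genome for which that gene would be the closest, so it sets how many distal peaks a gene could hold. The neural cadherins had a median of 1.54 distal peaks per 100 kb of territory in replicate 1 and 0.609 in replicate 2, which averaged 1.08 ± 0.660 (SD, n = 2). The epithelial cadherins had medians of 8.37 and 11.8 per 100 kb, averaging 10.1 ± 2.42 (SD, n = 2). The lower epithelial value thus lay above the higher neural one, a gap wider than the spread between libraries. That spread does not measure the spread among genes, which was wide and overlapped between the groups. In replicate 1 single genes ran from 0.913 to 21.8 for the neural and from 6.15 to 32.9 for the epithelial cadherins. Each median was the value of a single gene, however. For the epithelial cadherins it was Cdh26 in replicate 1 and Cdh16 in replicate 2, and for the neural ones Cdh18 and Cdh8. Both SDs therefore compared different genes, and Cdh16 had only 3 distal peaks in replicate 2. The limits of Cdh26 and Cdh16 are given below. The median over all coding genes was 5.33 in replicate 1 and 3.53 in replicate 2. In both libraries 9 of the 11 neural and none of the 5 epithelial cadherins lay below it. In numbers of peaks the order was the other way round, with 489 and 239 distal peaks for the neural cadherins and 72 and 63 for the epithelial ones. The denominators differed as well, with a median territory of 1952 kb for the neural and 54.8 kb for the epithelial cadherins, against 46.4 kb for all coding genes.

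**Figure D2:**
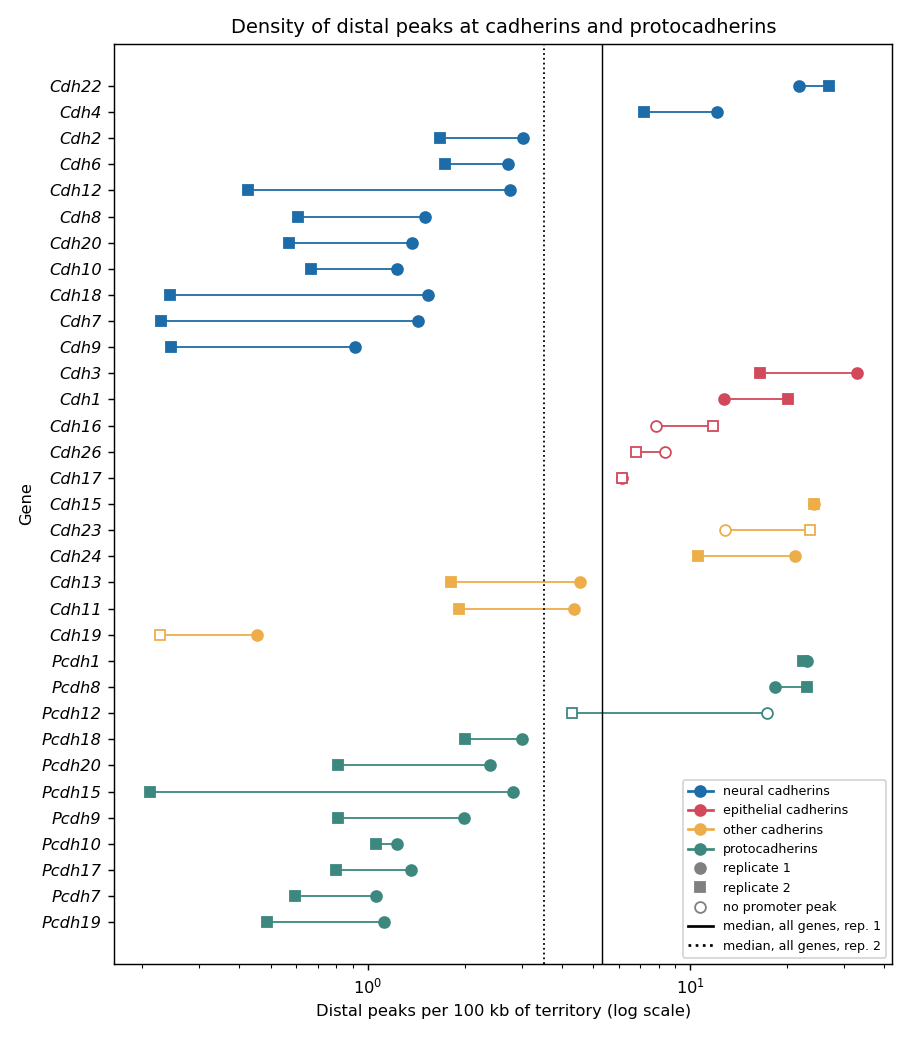
Distal peaks per 100 kb of territory (horizontal axis, log scale) for each member (vertical axis), as a circle for replicate 1 and a square for replicate 2 joined by a line; open symbols mark a library without a promoter peak at that gene. Of the neural cadherins only Cdh22 and Cdh4 lie right of the medians of all coding genes, drawn as a solid line for replicate 1 (5.33) and a dotted line for replicate 2 (3.53).

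Density falls with the length of a territory in the longest class, so each member was also ranked among the 200 coding genes with the most similar territory. The longest of 10 classes of territory, 283 to 4426 kb, had medians of 4.62 and 2.65 per 100 kb and held 22 of the 33 members. It held 10 of the 11 neural cadherins, all but Cdh22, and of the epithelial cadherins only Cdh26. Among genes of like territory 7 neural cadherins ranked under the 50th percentile in both libraries and 4 over it, against 0 and 4 of the epithelial cadherins. The remaining epithelial gene, Cdh17, ranked at 46.0 and 59.5. Ranks at or above the 90th percentile in both libraries were held by 6 members. These were Cdh4, Cdh22, Cdh3, Cdh15, Pcdh1 and Pcdh8.

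**Figure D3:**
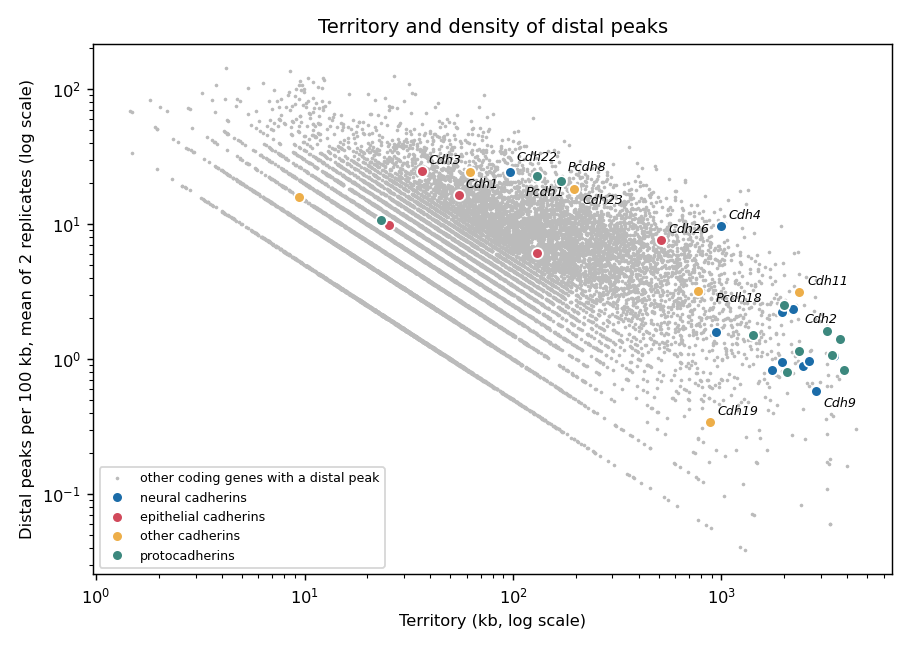
Density of distal peaks, mean of both replicates (vertical axis, peaks per 100 kb, log scale), against territory (horizontal axis, kb, log scale); grey points are other coding genes with at least 1 distal peak and coloured points the members. Most neural cadherins and protocadherins lie at the right, among the longest territories, with Cdh4 above the others of its length.

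Among the neural cadherins Cdh22 was the densest and Cdh4 had the most peaks. Cdh22 encodes a cadherin of brain and spans positions 165111507 to 165234853 of chromosome 2 on the minus strand. It had 21 distal peaks in replicate 1 and 26 in replicate 2, which is 21.8 and 27.0 per 100 kb (24.4 ± 3.67, SD, n = 2) in a territory of 96.3 kb. In replicate 1, 17 of them lay in its introns, and in replicate 2, 20 did. The intron peak with CAGCTG printed above was the best-scoring one, at the 94.5th and 93.6th percentile. Cdh4 encodes R-cadherin of retina and brain and spans 179442431 to 179899373 of the same chromosome on the plus strand. It had 121 and 72 distal peaks, 12.1 and 7.21 per 100 kb (9.66 ± 3.47, SD, n = 2), and ranked at the 97.0th and 96.5th percentile of genes of like territory. The introns of Cdh4 held 68 of these peaks in replicate 1 and 35 in replicate 2.

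Cdh2, which encodes the N-cadherin of neuroepithelial junctions, had fewer distal peaks per length than either. It lies at 16588877 to 16809246 of chromosome 18 on the minus strand, with 67 and 37 distal peaks and 3.03 and 1.67 per 100 kb (2.35 ± 0.959, SD, n = 2). It ranked at 68.5 and 72.5 among genes of like territory. Cdh6, a type II cadherin of kidney and hindbrain, had 53 and 34 distal peaks and ranked at 62.0 and 74.0. These 2 genes and Cdh4 and Cdh22 were the neural cadherins over the 50th percentile in both libraries.

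The other 7 neural cadherins had few distal peaks for their length, and fewer in replicate 2 than in replicate 1. Cdh9, a type II cadherin of hippocampal synapses, had the lowest mean density, at 16728756 to 16857094 of chromosome 15 on the plus strand. It had 26 distal peaks in replicate 1 and 7 in replicate 2, or 0.913 and 0.246 per 100 kb (0.579 ± 0.472, SD, n = 2), and none of them lay within the gene. In replicate 2 Cdh7 and Cdh18 were lower, at 0.229 and 0.244 per 100 kb. Cdh7 and Cdh20, known from motor neuron pools, had 25 and 4 peaks and 36 and 15 peaks. Cdh8 had 52 and 21, Cdh10 had 24 and 13, Cdh12 had 26 and 4, and Cdh18 had 38 and 6. Replicate 1 held more distal peaks than replicate 2 at 10 of the 11 neural cadherins, all but Cdh22, and at 26 of the 33 members. At the neural cadherins 33.1% of the distal peaks of replicate 1 had a partner in replicate 2, and 69.5% of those of replicate 2 had one in replicate 1. For the epithelial cadherins the shares were 55.6% and 65.1%, and for all distal peaks 48.1% and 66.4%.

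Some members are neighbours with no other coding gene between them, and the distal peaks of such runs were also counted together. Cdh6, Cdh9 and Cdh10 on chromosome 15 had 103 and 54 distal peaks in 6744 kb, or 1.53 and 0.801 per 100 kb. Cdh12 and Cdh18, farther along the same chromosome, had 64 and 10 in 3405 kb, or 1.88 and 0.294 per 100 kb. Cdh7 and Cdh19 on chromosome 1 had 1.10 and 0.228 per 100 kb, and Cdh8 and Cdh11 on chromosome 8 had 2.66 and 1.14. Pcdh20 and Pcdh9 on chromosome 14 had 2.18 and 0.809. Members of a run could differ, with 1.51 and 0.609 at Cdh8 beside 4.35 and 1.92 at Cdh11. Likewise Cdh6 had 2.72 and 1.74 beside 0.913 and 0.246 at Cdh9. Cdh26 and Cdh4 on chromosome 2 were the rich pair, with 10.8 and 7.07 per 100 kb. Members of such a run border on each other, so they are not separate observations of their group.

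The epithelial cadherins were dense at Cdh3 and Cdh1 and in the long stretch next to Cdh26. Cdh3, at 106510891 to 106557297 of chromosome 8 on the plus strand, had 12 distal peaks in replicate 1 and 6 in replicate 2, or 32.9 and 16.5 per 100 kb (24.7 ± 11.6, SD, n = 2). All 6 peaks of replicate 2 overlapped one of replicate 1, while only 6 of the 12 of replicate 1 had a partner in replicate 2. Cdh1, at 106603351 to 106670246 on the same strand, had 7 and 11 distal peaks, or 12.8 and 20.1 per 100 kb (16.4 ± 5.16, SD, n = 2). Of these, 4 in replicate 1 and 10 in replicate 2 lay in introns of Cdh1. A partner in the other library was found for 5 of the 7 in replicate 1 and 5 of the 11 in replicate 2. Cdh16, at 104601911 to 104624396 of chromosome 8 on the minus strand, had 2 and 3, all of them in its introns. Its density was 7.86 and 11.8 per 100 kb (9.82 ± 2.78, SD, n = 2), and 1 peak in a territory of 25.5 kb made the difference between the libraries. Cdh17, at 11758147 to 11817895 of chromosome 4 on the plus strand, was the least dense epithelial gene, with 8 distal peaks and 6.15 per 100 kb in each library. Both genes had distal peaks without a promoter peak.

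Most of the epithelial distal peaks came from Cdh26, and most of these lay between Cdh26 and its neural neighbour Cdh4. Cdh26 spans 178430531 to 178487366 of chromosome 2 on the plus strand and had 43 and 35 distal peaks, or 8.37 and 6.81 per 100 kb (7.59 ± 1.10, SD, n = 2). Its introns held 3 in replicate 1 and 5 in replicate 2. The stretch from the end of Cdh26 to the start of Cdh4, positions 178487367 to 179442430, is 955 kb long and held 86 distal peaks in replicate 1 and 63 in replicate 2. By the nearest TSS 47 and 33 of them were assigned to Cdh4, and 39 and 30 to Cdh26. In full bins of 100 kb, replicate 1 had 6 to 14 peaks and replicate 2 had 6 to 8, with no gap at the border between the assignments. Which of both genes a peak in this stretch acts on was not tested. The nearest TSS is the only ground for counting these peaks as epithelial.

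**Figure D4:**
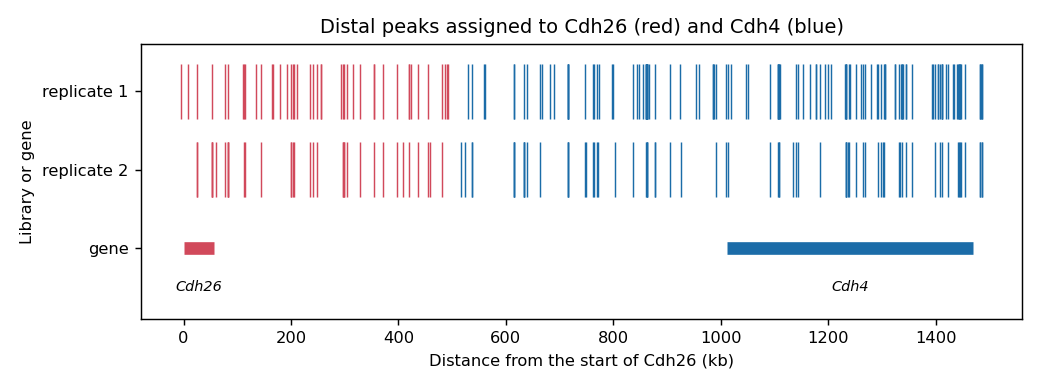
Distal peaks assigned to Cdh26 (red) and Cdh4 (blue) in each replicate, with the extent of both genes in the lowest row, against distance from the start of Cdh26 (horizontal axis, kb). Peaks run through the 955 kb between the genes without a gap where the assignment changes.

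Of the other cadherins Cdh15 was the densest, Cdh11 had the most distal peaks as a mean of both libraries, with Cdh23 ahead by 1 peak in replicate 2, and Cdh19 the fewest for its length. Their medians were 8.66 and 6.25 per 100 kb (7.46 ± 1.70, SD, n = 2). Cdh15 encodes M-cadherin of skeletal muscle, at 122847966 to 122867397 of chromosome 8 on the plus strand, and had 15 distal peaks and 24.2 per 100 kb in each library. In replicate 1, 11 of them lay within other coding genes, and in replicate 2, 8 did. Cdh11 encodes a cadherin of mesenchyme and bone, at 102632095 to 102785642 of that chromosome on the minus strand, with 102 and 45 distal peaks. At 4.35 and 1.92 per 100 kb (3.14 ± 1.72, SD, n = 2) it ranked at 84.0 and 77.0 among genes of like territory. Cdh13, which encodes T-cadherin anchored to the membrane by a lipid, had 35 and 14 distal peaks.

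Cdh19, at 110888326 to 110977584 of chromosome 1 on the minus strand, had 4 distal peaks in replicate 1 and 2 in replicate 2, or 0.453 and 0.227 per 100 kb (0.340 ± 0.160, SD, n = 2). None lay within the gene. Cdh23 had no promoter peak and yet 25 distal peaks in replicate 1 and 46 in replicate 2, which all lay within the gene, at 60302748 to 60696490 of chromosome 10 on the minus strand. Its density was 12.8 and 23.5 per 100 kb (18.2 ± 7.59, SD, n = 2), and it ranked at 87.5 and 99.5. Only 16 of the 46 in replicate 2 had a partner in replicate 1. Cdh24, whose territory is 9.45 kb, had 2 and 1 distal peaks.

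The protocadherins had a low median density over their whole territories and a median summed width of promoter hotspots above that of all coding genes. Their median density was 2.40 and 0.809 per 100 kb (1.60 ± 1.12, SD, n = 2) in territories with a median of 2052 kb. Counted only within 100 kb of a TSS the direction turned, with medians of 5.98 and 4.31 for the protocadherins against 5.39 and 3.61 for all coding genes. Among genes of like territory 4 protocadherins ranked over and 3 under the 50th percentile in both libraries. The best promoter peak had a median percentile of 96.4 and 95.7 over the 10 open genes. Pcdh9, Pcdh10 and Pcdh17, known from brain circuits, reached 99.3, 99.3 and 99.5 in replicate 1 and 99.4, 97.9 and 98.9 in replicate 2. Hotspot width was summed over all hotspots that touched a promoter window of a gene, so genes with several TSSs could gather more. The protocadherins had a median sum of 3886.5 bp in replicate 1 and 2223.5 bp in replicate 2. For the neural cadherins the medians were 2074 and 1551 bp, and for all coding genes with a promoter hotspot 1670 and 1258 bp. Pcdh7 had the largest sum, 7148 and 6579 bp, of which its longest hotspot made up 7078 and 6366 bp. Starts of non-coding transcripts lie within 500 bp of open TSSs of Pcdh1, Pcdh7 and Pcdh10, so opening there cannot be assigned to the protocadherin alone. At Pcdh17 the libraries disagreed, with 5841 bp in replicate 1 and 1027 bp in replicate 2.

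Open sites next to the promoter were a feature of several protocadherins. Pcdh10 had 11 of 29 distal peaks in replicate 1 and 10 of 25 in replicate 2 within 5 kb of its TSSs. Pcdh8, which encodes a protocadherin of paraxial mesoderm and synapses, had 9 of 31 and 11 of 39, and Pcdh17 had 8 of 46 and 11 of 27. Pcdh19, known in human for a form of epilepsy, had 6 of 23 and 4 of 10. Over all distal peaks 16.0% in replicate 1 and 16.5% in replicate 2 lay within 5 kb. Pcdh17 was near that share in replicate 1, at 17.4%, and above it in replicate 2, at 40.7%. Such sites were not particular to protocadherins, as Cdh3 had 41.7% and 33.3% there and Cdh1 57.1% and 18.2%, from few peaks. Some distal peaks, counted at any distance, lay in exons of the gene itself. Exons of Pcdh10 held 7 and 6, those of Pcdh8 held 5 and 9, those of Pcdh17 held 7 and 10 and those of Pcdh19 held 0 in both libraries, whereas 4.10% and 4.93% of all distal peaks lay in an exon of their own gene. Protocadherin genes of this kind are known to carry most of the extracellular part in one large first exon. Shares within 5 kb varied in the rest of the group. Pcdh9 and Pcdh20 had 1.35% and 3.90% of the distal peaks of replicate 1 there, and 3.33% and 3.85% of those of replicate 2. Pcdh7 had 12.2% in replicate 1 and 21.7% in replicate 2, and Pcdh12 had 2 of its 4 peaks and its only peak there. Pcdh18 had none within 5 kb in either library.

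**Figure D5:**
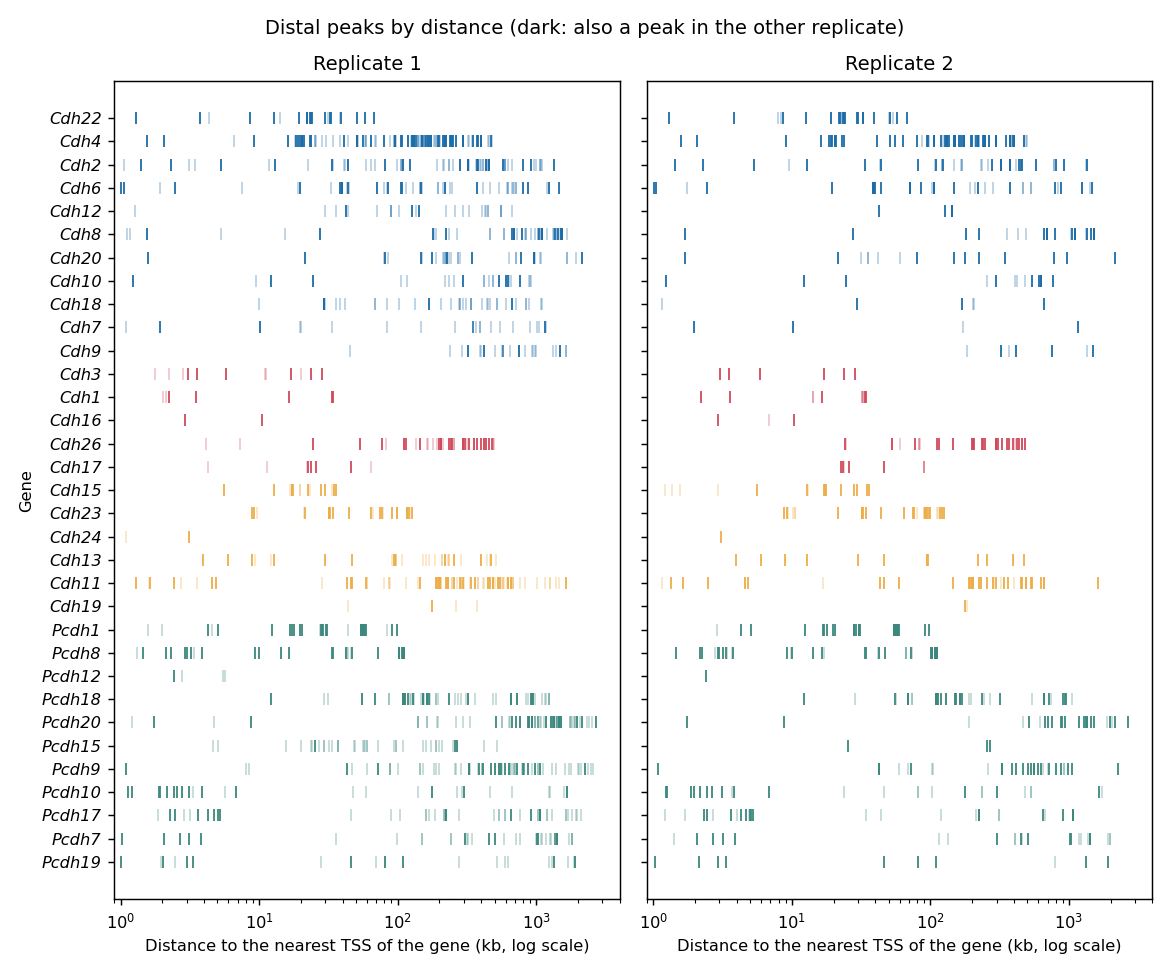
Distance of every distal peak from the nearest TSS of its gene (horizontal axes, kb, log scale) by member (vertical axis), for replicate 1 on the left and replicate 2 on the right. Dark ticks overlap a peak in the other replicate and pale ticks do not; Pcdh8, Pcdh10 and Pcdh17 have a group of dark ticks within 5 kb.

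Pcdh1 and Pcdh8 were the densest protocadherins, and Pcdh9 and Pcdh20 had the most distal peaks as a mean of both libraries. Pcdh1, also known from airway epithelium, spans 38185914 to 38212053 of chromosome 18 on the minus strand and had 30 and 29 distal peaks, or 23.1 and 22.3 per 100 kb (22.7 ± 0.544, SD, n = 2). In replicate 2, 25 of its 29 peaks overlapped one of replicate 1. Pcdh8, at 79766775 to 79771312 of chromosome 14 on the minus strand, had 18.3 and 23.1 per 100 kb (20.7 ± 3.35, SD, n = 2). Pcdh1 was the denser of the 2 in replicate 1 and Pcdh8 in replicate 2, and both were in the top 10% of genes of like territory in both libraries. Pcdh20, at 88464743 to 88471396 of the same chromosome and strand, had 77 and 26 distal peaks, or 2.40 and 0.809 per 100 kb (1.60 ± 1.12, SD, n = 2). Pcdh9, at 93013410 to 93890679 of that chromosome and strand, had 74 and 30, or 2.00 and 0.809 per 100 kb (1.40 ± 0.839, SD, n = 2). In replicate 1 Pcdh20 had the most of the group, and in replicate 2 Pcdh18 did, with 40.

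The remaining protocadherins had between 1 and 60 distal peaks in a library. Pcdh18 had 60 and 40, Pcdh7 had 41 and 23, and Pcdh15 had 40 and 3. Pcdh15, the partner of Cdh23 in the tip link, had all of its distal peaks within the gene. Among genes of like territory it ranked at 57.5 in replicate 1 and at 13.0 in replicate 2. Pcdh19, at 133582860 to 133688987 of chromosome X on the minus strand, had the lowest mean density of the group, 1.12 and 0.487 per 100 kb (0.804 ± 0.448, SD, n = 2). Pcdh12, at 38267089 to 38284402 of chromosome 18 on the minus strand, had 4 and 1 distal peaks, or 17.2 and 4.31 per 100 kb (10.8 ± 9.14, SD, n = 2), and 1 of them was found in both libraries.

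Partners and relatives of the cadherins were read for context from lists of related genes. For comparison, 66.5% of all coding genes had a promoter peak in both libraries. Their median density was 5.33 per 100 kb in replicate 1 and 3.53 in replicate 2. All 11 catenin and junction adaptor genes had a promoter peak in both libraries, among them Ctnnb1, which encodes the β-catenin that binds classical cadherins. The median density of these 11 genes was 8.41 and 7.14 per 100 kb, above that of the neural cadherins and of all coding genes in both libraries. All 7 genes for repressors of Cdh1 (Snai1, Snai2, Snai3, Zeb1, Zeb2, Twist1 and Twist2) were open as well. The giant cadherins of planar polarity and tissue growth had 8 of 9 open, all but Fat2. Genes of the desmosome, the junction of stratified epithelia and heart that is built on its own cadherins, had 6 of 13 open in both libraries and medians of 2.04 and 0.372 per 100 kb. Other cadherin relatives had 5 of 10 open, and Cdh5 of endothelium, which is also in the endothelial list below, was among those without a promoter peak.

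Markers of other cell types were open to different extents beside these results. Of 18 genes of surface ectoderm and other epithelia, 12 were open in both libraries, a share near the 66.5% of all coding genes, 13 in replicate 1 and 14 in replicate 2, and 3 in neither, namely Krt8, Krt14 and Trp63. Their distal density ranged between 0 and 21.9 per 100 kb in replicate 1 and between 0 and 17.6 in replicate 2. Epcam, an adhesion gene of epithelia, and Grhl2, an activator of Cdh1, were open in both libraries, with 13 and 12 and with 35 and 21 distal peaks. The part of epithelial cells in the open promoters of Cdh1 and Cdh3 was not tested. Mesenchyme markers, among them Twist1 of the repressor list, were open at 8 of 8 genes, beside an open Cdh11. Skeletal muscle markers were open in both libraries at 1 of 5, Myod1, beside an open Cdh15. Myog was open in replicate 1 only and Myf5 in replicate 2 only. Markers of neural crest and peripheral glia were open in both libraries at 4 of 6 genes, and Sox10, like Cdh19, in replicate 1 only. Endothelial markers were open in both libraries at 3 of 8, beside a closed Pcdh12. In replicate 1, 5 of them were open, in replicate 2, 4 were, and 2 were open in neither. The part of these cell types was not tested either.

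Short motifs were counted on both strands in the distal peaks of each group, each motif by itself. They were CACCTG for Snail and Zeb repressors, CAGCTG for proneural bHLH factors, ACAATG for Sox factors, TAATTA for homeodomain factors, ATGCAAAT for POU factors, AACCGGTT for Grainyhead-like factors, TGANTCA for AP-1 and GGAATG for TEAD factors. ACAATG was present in 13.5% of 489 neural and 9.72% of 72 epithelial distal peaks in replicate 1, against 9.54% of all distal peaks. In replicate 2 it was present in 7.95% of 239 neural and 1.59% of 63 epithelial peaks, against 7.95% of all. CAGCTG was present in 15.3% of neural and 20.8% of epithelial peaks in replicate 1 (15.7% of all), and in 20.1% and 31.7% in replicate 2 (17.1% of all). CACCTG was present in 7.98% of neural and 12.5% of epithelial peaks in replicate 1 (9.92% of all), and in 8.79% and 17.5% in replicate 2 (12.0% of all). ATGCAAAT was found in 11 neural peaks of replicate 1 (2.25%, against 1.27% of all) and 7 of replicate 2 (2.93%, against 0.967% of all). It was found in 0 epithelial peaks of either, but at such low shares few matches could fall among 72 and 63 peaks. AACCGGTT was found in none of the neural or epithelial peaks, and in only 0.0552% and 0.0555% of all distal peaks. TAATTA was present in 4.70% of neural and 5.56% of epithelial peaks in replicate 1 (3.84% of all). In replicate 2 the shares were 2.93% and 4.76% (2.53% of all). For TGANTCA they were 5.52% and 5.56% (4.94% of all), then 2.51% and 3.17% (4.52% of all). For GGAATG they were 9.00% and 11.1% (9.62% of all), then 11.3% and 9.52% (9.61% of all). Epithelial peaks were richer in GC, with medians of 46.0% for neural and 52.3% for epithelial peaks in replicate 1. In replicate 2 they were 50.7% and 54.0%. The part of base composition in the shares was not tested.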

How the data were processed

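DNase-seq of neural tube from embryos at 11.5 days was deposited as peaks and hotspots of 2 libraries, called separately on mm10 per the labels. The authors deposited a whole-number score for each 150 bp peak and a −log10 q-value for each hotspot; the names of aligner and caller, not given in the sources used here, were not assumed. Both libraries form 1 group, replicate numbers are those of the labels, and depth is unknown. The 33 members and all lists were chosen with earlier results of these data known.

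Rows at a repeated position were dropped (45 from replicate 1, 22 from replicate 2). The GENCODE vM21 annotation of GRCm38.p6 gave 21853 protein-coding genes with 54361 TSSs, and 14 genes without territory had no density. A promoter peak overlapped 500 bp to either side of a TSS, a distal peak had its centre over 1 kb from every coding TSS, and overlap between libraries required 1 bp. Hotspots with a −log10 q-value as deposited were used only for widths and as an alternative. Named genes are every member, with full values for the densest and least dense member and that with the most distal peaks in each group and for those without a promoter peak in a library. The split at a CpG ratio of 0.6 and the ranking among 200 genes of like territory were added after the data were seen. No test was run and no p-value is given. Promoter calls, territories and the assignment of distal peaks were tested on simulated data. Python 3.11.15, numpy 2.4.6, pysam 0.24.0, samtools 1.23.1 and matplotlib 3.10.9 were used. Alternatives changed the promoter window, the distal distance, the score cut, the TSSs, the territory and the group of Cdh11, and left out each library.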

Additional observations from a re-analysis of the deposited data

How the results depend on the processing

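The promoter counts kept their side in most settings, and 33 of 34 alternative counts lay within 1.5 times the reported count. With a promoter window of 200 bp the other cadherins had 2 open in both libraries. Leaving out 1 library gave 11 to 11 open neural, 2 to 2 open epithelial and 10 to 10 open protocadherin promoters, and 4 to 5 among the other cadherins. The median density of neural cadherins lay below that of epithelial cadherins in all 11 settings, the reported one included. Of the 34 alternative medians that keep both libraries, 18 moved by less than the SD between libraries and 16 by more; with 2 libraries, leaving out 1 always moves a median by less than that SD. With only the higher-scoring 50% of each list, medians per 100 kb were 0.304 for neural, 3.65 for epithelial and 0.945 for other cadherins and 0.429 for protocadherins. With TSSs of all annotated genes they were 3.21 for neural and 10.3 for other cadherins and 4.27 for protocadherins. Within 100 kb of a TSS they were 2.24, 9.38 and 5.14 for the same groups, and over the span of the gene 2.08 for neural cadherins and 5.33 for protocadherins. With distal set to over 5 kb the epithelial median was 6.66 and that of the other cadherins 2.93. With only peaks found in both libraries the medians were 0.441 for neural and 4.996 for other cadherins and 0.581 for protocadherins, and with Cdh11 counted as neural the other cadherins had 11.7. The causes were not tested, except that a higher score cut leaves fewer peaks by construction. Leaving out 1 library gave medians of 0.609 to 1.54 for neural, 8.37 to 11.8 for epithelial and 6.25 to 8.66 for other cadherins and 0.809 to 2.40 for protocadherins. No paired analysis was possible because the labels give 1 group. The unknown depth, the single pair of libraries and the assignment to the nearest TSS limit every value, and small territories such as those of Cdh16 and Cdh24 rest on a few peaks.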
